A study of Mus musculus with 88 samples.

Results

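The comparison of a Fosb guide with a non-targeted guide in D2-type cells of female mice used 16 of 87 sequenced libraries, 8 of the group F_D2-targeted and 8 of the group F_D2-control. The groups were taken from the sample labels. Of 9 libraries labelled F_D2-targeted, 1 matched no column of the count table and was not analysed here. Libraries are named by the numbers in their titles. In both groups female D2-Cre mice on a C57BL/6 backcross received a pair of herpes simplex vectors in the nucleus accumbens. One vector encoded a Cas9 without cutting activity, joined to CREB(S133D), a mutant of the transcription factor CREB that is always active. The other carried the guide RNA, gRNA-Fosb (also called g11) in targeted mice and gNT in controls. The vectors were of the Cre-dependent kind, so the activator was present in controls as well and only the guide differed. Tissue was frozen 6 days after surgery, and its ribosomal RNA-depleted total RNA was made into strand-preserving libraries, all sequenced in batch 1. The sources used here do not give the age of the mice or the make of the D2-Cre driver. Nothing there says whether each library is a separate animal, so p-values measure the spread between libraries. In the main edgeR fit that spread was estimated over the libraries of all 12 groups, not from these 16 alone.

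The nucleus accumbens is a reward region of the ventral striatum, built mainly of medium spiny neurons. D2-type medium spiny neurons carry the dopamine receptor Drd2, the adenosine receptor Adora2a and the opioid precursor Penk, and they form the indirect pathway. D1-type neurons carry Drd1, Tac1 and Pdyn. Fosb encodes FosB and its truncated, long-lived splice product ΔFosB, which pair with Jun proteins to form AP-1 factors that bind many promoters. ΔFosB builds up in these neurons with repeated drug exposure or stress. CREB binds cAMP response elements and, once phosphorylated at the serine that S133D mimics, recruits coactivators to genes such as Fosb.

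The region the guide was meant for lies on chromosome 7, where Fosb runs on the minus strand. The bases just before its annotated start are shown because a CREB fusion was brought to this locus, although the sources used here do not give the guide's own position. The sequence is that of RefSeq on GRCm38.p6, chr7:19310052-19310295, minus strand, printed 5′ to 3′ and ending at the base before the GENCODE M21 start, with the only match to TGACG, the core of the cAMP response element, in capitals.
Fosb promoter: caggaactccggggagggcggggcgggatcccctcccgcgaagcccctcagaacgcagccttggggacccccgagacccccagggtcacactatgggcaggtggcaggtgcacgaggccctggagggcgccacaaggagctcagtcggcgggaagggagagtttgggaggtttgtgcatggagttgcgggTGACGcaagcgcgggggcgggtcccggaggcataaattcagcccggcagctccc
The match begins at position −54 from the start. Windows of the same length hold TGACG on either strand in 17.24% of 32851 promoters. The full element TGACGTCA, present in 1.495% of them, and the AP-1 element TGAGTCA, present in 4.396%, had no match in the Fosb window.

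Some libraries stand apart, and this touches many values below. Total counts ran from 12430387 to 40936856. In targeted libraries 17907 and 18432 the 10 most abundant genes held 95.5% and 94.0% of the counts, against 8.61% to 20.4% in the other 6 targeted libraries and 7.55% to 25.6% in controls. Most of this lay in 5 genes with ribosomal RNA-like reads, CT010467.1, Gm42418, AY036118, Lars2 and Gm15564, with 94.9% and 92.4% in these libraries. CT010467.1, Gm42418 and AY036118 overlap on chromosome 17 of mm10, between 39846353 and 39848827. CT010467.1 and AY036118 are both on the minus strand, so reads in their overlap cannot be told apart. Those of Gm42418, on the plus strand, can be set apart only if strand was used in counting. The effective sizes of 17907 and 18432, after trimmed-mean (TMM) scaling, were 974650 and 1093708 counts, which makes 1 read worth about 1 CPM there. Genes with at least 1 count numbered 18148 and 18670 in these, against 29501 to 32219 in the other targeted libraries and 30391 to 31957 in controls. Controls 17906 and 17910 had the lowest mean levels of interferon-stimulated and antigen presentation genes of all 16 libraries. Results are therefore also given without 17907 and 18432, and, as a choice made after seeing the data, without 17906 and 17910. All libraries held the female transcript Xist, at 36.3 to 96.9 CPM in targeted libraries and 49.5 to 86.0 in controls, and the Y-linked Ddx3y had 4 to 39 counts against 0 to 18.

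**Figure D1:**
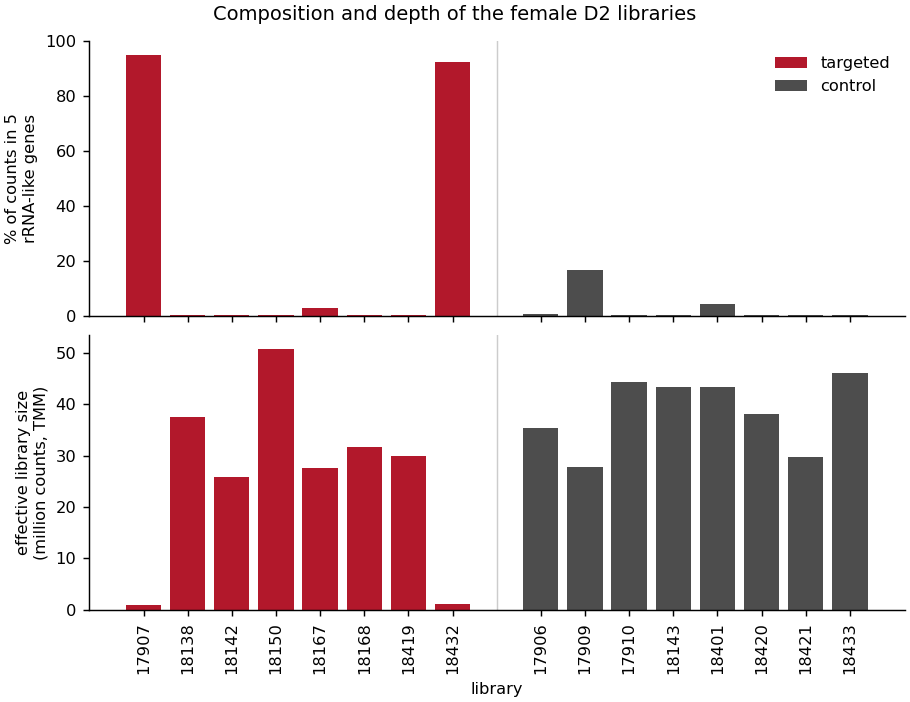
Share of counts in the 5 ribosomal RNA-like genes (upper panel, percent) and effective library size after TMM scaling (lower panel, in units of 1000000 counts) in 8 targeted and 8 control libraries. Targeted libraries 17907 and 18432 stand at 94.9% and 92.4%, and control 17909 is next at 16.5%.

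Fosb, the gene the guide was directed to (ENSMUSG00000003545, chr7:19302696-19310051, minus strand of mm10), had a lower mean with the Fosb guide than without it, and the difference did not pass. Levels are counts per 1000000 (CPM), scaled by TMM. Fosb lay at 4.66 to 13.3 CPM (median 5.96) in targeted libraries, against 5.47 to 11.9 (median 7.48) in controls. The highest targeted value belonged to 17907 and rests on 13 counts, with an exact Poisson interval of 7.10 to 22.8 CPM, and 18432 had 7 counts and 6.40 CPM, with an interval of 2.57 to 13.2. These intervals cover counting error only. The 6 deeper targeted libraries all lay between 4.66 (18419) and 6.09 CPM (18167), while the control of the lowest level, 18401, was at 5.47 CPM and that of the highest, 17910, at 11.9. Thus 7 of 8 targeted libraries were below the control median, and the groups overlapped.

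By edgeR the log2 fold change of Fosb, targeted over control, was −0.37 (SE 0.23, 95% interval −0.82 to 0.09, p = 0.111). Without 17907 and 18432 it was −0.50 (edgeR p = 0.0316), and without controls 17906 and 17910 it was −0.26 (edgeR p = 0.284). Without all 4 it was −0.40 (edgeR p = 0.102). The means without 17907 and 18432 were 5.46 ± 0.656 CPM in targeted and 7.71 ± 1.86 in control libraries (SD, n = 6 and 8). A two-sided exact permutation test of mean log2 CPM gave 0.00333 over the 3003 splits of these 14 libraries, against 0.195 over the 12870 splits of all 16, whose means were 6.56 ± 2.81 and 7.71 ± 1.86 CPM. Leaving out 17907 alone gave 0.00342 by the exact test, and each other library left out alone gave 0.120 to 0.374. After adjustment over all genes none of these edgeR fits called Fosb. RNA came from dissected tissue, so Fosb within the infected D2 cells was not measured.

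**Figure D2:**
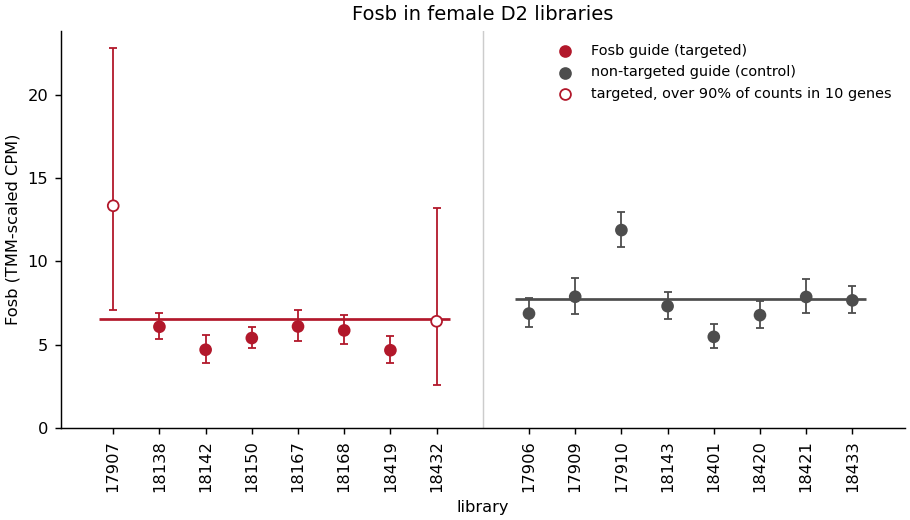
Fosb in each library as TMM-scaled CPM, with exact 95% Poisson intervals of the counts (bars), group means (horizontal lines) and open points for targeted libraries 17907 and 18432. The 6 deeper targeted libraries lie between 4.66 and 6.09 CPM, and 7 of 8 controls lie at 6.77 CPM or above.

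The 10 genes annotated beside Fosb had log2 fold changes between −0.15 (Rtn2, a reticulon) and 0.10 (Ppp1r13l, an inhibitor of p53 and NF-kappaB activity). None of them had an unadjusted p under 0.05. In females given the same guide with D1 delivery (F_D1) the log2 fold change of Fosb was 0.41, and the difference of the D2 effect from it had an edgeR p of 0.0198 (adjusted 1 over all genes). In males with D2 delivery it was −0.30, and the difference between the sexes had a p of 0.831.

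Across all genes edgeR called none of 25420 at an adjusted p of 0.05 (0%), and the lowest adjusted p was 0.143, for Pole2. At an unadjusted p under 0.05 there were 421 genes (1.66%), with 185 higher (0.728%) and 236 lower (0.928%) in targeted libraries. That split turned with the tool, since DESeq2 gave 230 higher (0.905%) and 140 lower (0.551%) and limma-voom 568 higher (2.23%) and 170 lower (0.669%). Without 17907 and 18432 edgeR again called 0, of 25523 genes, with 342 at an unadjusted p under 0.05 (1.34%). Without controls 17906 and 17910 it called 1 gene (0.00394%), Pole2, and 616 genes had an unadjusted p under 0.05 (2.43%), 426 of them higher (1.68%) and 190 lower (0.748%). Without all 4 libraries Pole2 was again the 1 gene called (0.00392%). Limma-voom with quality weights and edgeR with 3 surrogate variables called 0 each, with 738 (2.9%) and 645 genes (2.54%) at an unadjusted p under 0.05. DESeq2 called 4 (0.0157%), all of them 5S ribosomal RNA genes or a gene that overlaps one, and called 0 without 17907 and 18432 (332 genes at an unadjusted p under 0.05). The median log2 fold change over all genes was −0.03, and 43.1% of genes lay above 0, 46.5% without 17907 and 18432 and 46.3% without controls 17906 and 17910. Groups that do not overlap were found for 1 gene, Gm37486 (lower, 0.00393%), at no more than 0.290 CPM in targeted libraries, against at least 0.311 in controls. Without 17907 and 18432 the zinc finger gene Zfp879 was also lower in every targeted library (2 genes lower, 0.00787%), at 2.08 to 2.71 CPM against 2.81 to 3.54 in controls. Higher in every targeted library were then 2 genes (0.00787%), Zfp473, at 1.09 to 1.39 CPM against 0.734 to 1.08, and the forebrain homeobox gene Lhx5, which stayed under 0.54 CPM in all libraries. These 4 genes were named after their values were seen.

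The genes named next had the smallest unadjusted p among those with a mean of at least 1 CPM, or the smallest within a list, and none of them passed. Among genes lower with the Fosb guide Kcns2, which encodes a modulatory potassium channel subunit, came first after Pole2. It lay at 38.8 to 53.5 CPM (median 41.5) in targeted libraries, against 40.1 to 65.8 (median 59.8) in controls. All 8 targeted libraries were below the control median, as was the case for 344 of all genes tested (1.35%), although controls 17906 and 17909 lay within the targeted range. The edgeR log2 fold change was −0.36 (SE 0.12, p = 0.00289), −0.33 without 17907 and 18432 and −0.40 without controls 17906 and 17910.

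Fut11, a fucosyltransferase gene of the secretory pathway, had a log2 fold change of −0.24 (p = 0.00360), with 5.13 to 14.8 CPM (median 13.3) in targeted libraries, against 12.8 to 16.7 (median 14.8) in controls. Its lowest values were those of 17907 and 18432, and without them the difference was −0.15 (p = 0.0336). Tmem159, which encodes a lipid droplet assembly factor, was at −0.38 and Tmem64, a regulator of calcium pumping, at −0.30. Without 17907 and 18432 they were at −0.32 and −0.21. The lysophospholipase gene Abhd12 was at −0.16, with 160.1 to 221 CPM (median 209.8) in targeted libraries, against 215 to 241 (median 231) in controls. Nr6a1, an orphan nuclear receptor, was at −0.33 and the phosphatase subunit gene Ppp4r2 at −0.21. Without 17907 and 18432 Abhd12 was at −0.13, Nr6a1 at −0.34 and Ppp4r2 at −0.15. All or 7 of 8 targeted libraries lay below the control median for each of these. The matrix gene Smoc2 was at −1.30, but −0.37 without controls 17906 and 17910 and −0.44 without 17906 alone, which held 8.19 CPM while no other library was over 1.92.

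Among genes higher with the Fosb guide, the sialyltransferase gene St8sia6 lay at 2.37 to 12.1 CPM (median 3.24) in targeted libraries, against 1.27 to 4.12 (median 2.29) in controls, a log2 fold change of 0.90 (SE 0.27, edgeR p = 0.00139). Every targeted library was above the control median, as for 56 of all genes tested (0.22%), with 18419 the highest at 12.1 CPM and the next, 18150, at 5.94. Without 18419 the log2 fold change was 0.46. The xylosyltransferase gene Gxylt1, which acts on Notch sugars, was at 0.58 (p = 0.00116) with all libraries and −0.02 without 18419, which held 42.2 CPM. Of 8 targeted libraries 4 were below its control median. Map3k21, a stress kinase gene, lay at 0.853 to 2.05 CPM (median 1.29) in targeted libraries, against 0.611 to 1.18 (median 0.777) in controls, and Rec8, a meiotic cohesin gene, at 3.30 to 8.72 CPM (median 4.33) in targeted libraries, against 2.52 to 5.68 (median 3.01) in controls. Their log2 fold changes were 0.55 and 0.62, and all 8 targeted libraries were above the control median for both. Without 17907 and 18432 the log2 fold changes were 0.49 and 0.64. In 17907 and 18432 a single read is worth about 1 CPM, which is already above the control median of Map3k21. The centrosomal gene Cep95 was at 0.24 and Zfp395, a zinc finger gene, at 0.54. Without 17907 and 18432 these 2 were at 0.19 and 0.37. The serotonin receptor gene Htr7 lay at 4.57 to 10.6 CPM (median 7.28) in targeted libraries, against 4.30 to 6.64 (median 5.06) in controls, a log2 fold change of 0.58 (p = 0.0253), which was 0.66 without 17907 and 18432.

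Several of the smallest p-values came from a single library each. Pole2, a subunit of DNA polymerase epsilon on chromosome 12, had 283 CPM in control 18401 and at most 6.16 in any other library, and its log2 fold change was −3.92 with all libraries and −0.05 without 18401. Pigo, of the glycolipid anchor pathway, had 62.6 CPM in control 18143 and at most 17.9 elsewhere. Gm43333 had 15.8 CPM in targeted library 18168 and under 1 CPM in all others. Gm4335 had 59.7 CPM in targeted library 18419 and at most 1.91 in the others. It lies on chromosome 15 (chr15:93196595-93197598, mm10) in the same region as Gxylt1 (chr15:93239742-93275179), which was highest in the same library. The spliceosomal RNA gene Rnu2-10 had 58.5 CPM in 18167 and at most 2.53 in the rest. Of the 20 genes with the smallest p, 8 had a library at more than 2 times the level of the next, 7 of them in the targeted group. For 2 of these that library was 17907 or 18432. The share of such genes among all genes tested is not given here, so these counts cannot be called unusual.

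**Figure D3:**
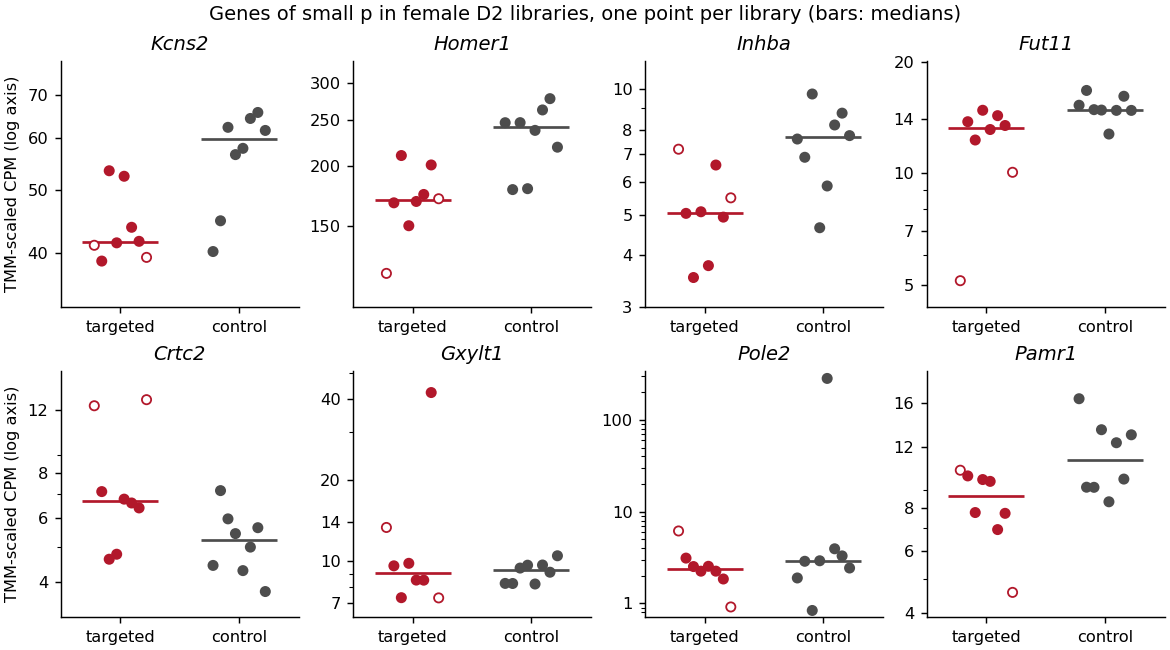
Levels of 8 genes with small unadjusted p in each targeted library (left, red; open points for 17907 and 18432) and control library (right, grey), as TMM-scaled CPM on log axes with medians as bars. Kcns2, Homer1, Inhba, Fut11 and Pamr1 have all 8 targeted libraries below the control median, while Gxylt1 and Pole2 each have one library far above the rest.

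Of the 4 genes that DESeq2 called with all 16 libraries 3 encode 5S ribosomal RNA, the small RNA of the large ribosomal subunit. Near-identical copies can share reads, which makes the level of each 5S gene uncertain. The 180 annotated 5S genes together had 332 counts in 17907 and 294 in 18432, against 42 to 83 in the other 6 targeted libraries and 62 to 90 in controls. In TMM-scaled units that is 341 and 269 CPM, against at most 3.24 in any other library. For n-R5s194 the edgeR log2 fold change was 7.99 with all libraries and −1.17 without 17907 and 18432.

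With all libraries AP-1 genes, the family of Fosb and its partners, lay on both sides of 0, 5 of 10 above it and none called. Their median was −0.02 next to −0.03 over all genes. Without controls 17906 and 17910 it was −0.12, with 3 of 10 above 0 (46.3% of all genes). Without these and 17907 and 18432 it was −0.18, with 1 of 10 above 0 (48.3% of all genes). Jund, a constitutive Jun partner of ΔFosB, was at 35.7 to 61.5 CPM (median 50.2) in targeted libraries, against 48.5 to 68.8 (median 62.5) in controls. Its log2 fold change was −0.25 (p = 0.0394), −0.19 without 17907 and 18432, and all 8 targeted libraries were below the control median. Fos, the founding activity-induced factor, was at 0.08 (95% interval −0.45 to 0.62), Junb at −0.11 and Fosl1 at −0.25. In the CREB family, to which the activator itself belongs, 5 of 12 genes lay above 0 (median −0.01). Creb1 was at −0.06 (95% interval −0.22 to 0.09) and Atf2 at −0.11. The CREB coactivator gene Crtc2 was at 4.61 to 12.8 CPM (median 6.69) in targeted libraries, against 3.75 to 7.16 (median 5.21) in controls, a log2 fold change of 0.41 (p = 0.00888). The highest values were those of 17907 and 18432, and without them it was 0.21 (p = 0.144).

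Activity-induced genes, whose transcripts follow neuronal firing, lay mostly below 0, where 56.8% of all genes did. They were 20 of 24, with a median of −0.16, and 22 of 24 without 17907 and 18432 (53.4% of all genes). Homer1, which encodes a postsynaptic scaffold with an inducible short form, lay at 119 to 211 CPM (median 169.9) in targeted libraries, against 179 to 278 (median 243) in controls. All 8 targeted libraries were below the control median, while controls 17909 and 18143, at 179 and 179.5 CPM, were inside the targeted range. Its log2 fold change was −0.44 (SE 0.17, edgeR p = 0.0107), and between −0.35 and −0.40 without the pairs of libraries named above or without all 4. Inhba, an activin subunit gene induced by synaptic activity, was at 3.53 to 7.18 CPM (median 5.06) in targeted libraries, against 4.65 to 9.75 (median 7.67) in controls. Again all 8 targeted libraries were below the control median, at a log2 fold change of −0.57 (p = 0.0184). The synaptic pentraxin gene Nptx2 was at −0.42 (p = 0.0589) and Arc, which acts in receptor endocytosis, at −0.34 (p = 0.164). The rapidly induced factors Npas4 (−0.18) and Nr4a1 (−0.05) were closer to 0. The mean log2 CPM of the 24 genes ran from 3.54 to 4.11 (median 3.93) in targeted libraries, against 3.77 to 4.34 (median 4.03) in controls, so the groups overlapped.

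Genes reported as ΔFosB targets in striatum had a median of −0.09, with 4 of 15 above 0. Without controls 17906 and 17910 it was −0.02, with 7 of 15 above 0, and without all 4 libraries −0.03. The calcium buffer gene Calb1 was at −0.43 (p = 0.0625), Cdk5r1, the activator of the kinase Cdk5, at −0.25 (−0.06 without all 4) and the AMPA receptor subunit gene Gria2 at −0.17. None of the 15 had an unadjusted p under 0.05.

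Genes of the medium spiny neuron as such lay a little below 0 throughout. All 15 genes shared by D1 and D2 cells lay below 0, from −0.34 to −0.12, with a median of −0.22, where 56.8% of all genes did. No member had an unadjusted p under 0.05. The median was −0.22 without 17907 and 18432, −0.22 without controls 17906 and 17910, and −0.23 without all 4, with 15 of 15 below 0 each time, next to 53.4%, 53.6% and 51.6% of all genes, and it stayed below 0 under all 30 alternatives tried. Its size moved when single controls were left out, to −0.14 without 17910 and −0.31 without 17906. The 15 genes were read from the same libraries and are not independent. Their mean log2 CPM ran from 7.68 to 7.99 (median 7.91) in targeted libraries, against 7.34 to 8.61 (median 8.09) in controls. Every targeted library lay below the control median, and yet the whole targeted range lay inside that of the controls, of which 17906 was the lowest and 17910 the highest of all 16. In bulk tissue fewer cells of a type and less RNA per cell cannot be told apart.

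Among the shared genes Ppp1r1b, which encodes the phosphatase inhibitor DARPP-32, was at 262 to 370.2 CPM (median 308) in targeted libraries, against 187 to 534 (median 375) in controls, a log2 fold change of −0.19 (95% interval −0.69 to 0.31). Adcy5, the main striatal adenylyl cyclase, was at −0.33 (p = 0.172). The small GTPase gene Rasd2, also called Rhes, was at −0.34 and the transcription factor gene Foxp1 at −0.26. Rgs9, which shuts off G protein signals, was at −0.27. The list of cAMP and G protein signalling, which shares 8 of its 16 genes with this one, had 15 of 16 below 0 and a median of −0.22, which was −0.12 without control 17910. Rgs14, a signalling scaffold, was at −0.25 there (p = 0.128).

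Markers of both cell types lay mostly below 0. Of 7 D2 markers measured 5 lay below 0, with a median of −0.16, and of 9 D1 markers 8 did, with a median of −0.13. Without control 17910 alone these medians were −0.02 for D2 and −0.02 for D1 markers, and without targeted library 18150 alone −0.25 and −0.20. Without both controls 17906 and 17910 they were −0.07, with 4 of 7 below 0, and −0.08, with 6 of 9. Drd2 was at 51.9 to 75.4 CPM (median 63.3) in targeted libraries, against 35.1 to 114 (median 71.6) in controls. Its log2 fold change was −0.21 (95% interval −0.75 to 0.33, and −0.09 without control 17910), that of Adora2a −0.27, that of the constitutively active receptor gene Gpr6 −0.28 and that of Penk −0.02. On the D1 side Drd1 was at −0.22, the substance P precursor gene Tac1 at −0.13 and the dynorphin precursor gene Pdyn at −0.09. The difference between these kinds of marker was not tested. Drd2 was lowest in control 17906 (35.1 CPM) and highest in control 17910 (114 CPM), so the controls spanned the targeted libraries.

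**Figure D4:**
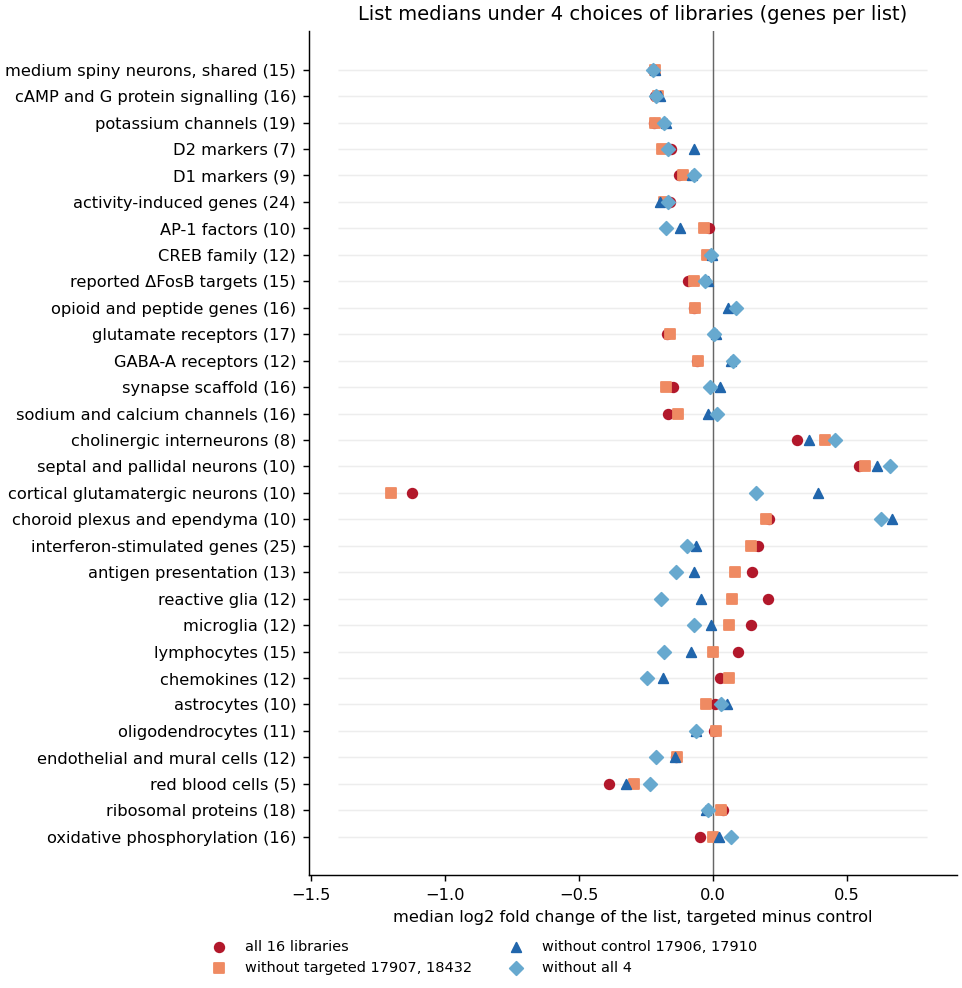
Median log2 fold change, targeted minus control, of 30 gene lists (number of genes in brackets) with all 16 libraries, without targeted 17907 and 18432, without controls 17906 and 17910, and without all 4. Lists of medium spiny neurons, cAMP signalling, potassium channels and activity-induced genes stay below 0 under all 4 choices, while the cortical and immune medians have the other sign without the 2 controls. Those controls were chosen for low interferon and antigen presentation levels, so lower medians of those lists without them were set by the choice.

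Ion channels and synaptic genes also lay mostly below 0, but part of this rested on the 2 controls. Of 19 potassium channel genes 18 were below 0, with a median of −0.22, and −0.18 without controls 17906 and 17910 (12 of 19). Without 17910 alone it was −0.14. The inward rectifier genes Kcnj4 and Kcnj2, whose channels hold medium spiny neurons at their resting potential, were at −0.40 (p = 0.0421) and −0.33 (p = 0.0808). Without 17907 and 18432 they were at −0.31 (edgeR p = 0.135) and −0.32 (edgeR p = 0.122). Kcnj2 lay at 38.5 to 53.3 CPM (median 41.6) in targeted libraries, against 26.1 to 74.1 (median 56.0) in controls, with all 8 targeted libraries below the control median and control 17906 the lowest of all. Of 16 sodium and calcium channel genes 14 were below 0 (median −0.17), against 10 without the 2 controls (median −0.02). Cacna1i, a T-type calcium channel gene, was at −0.32.

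Glutamate receptor genes had 14 of 17 below 0 and a median of −0.17, which was 0.01 without controls 17906 and 17910. Grm5, the metabotropic receptor that Homer1 binds, was at −0.22 (p = 0.106). An exception was the NMDA receptor subunit gene Grin2d, at 1.83 to 6.14 CPM (median 3.88) in targeted libraries, against 2.10 to 3.96 (median 2.94) in controls, a log2 fold change of 0.50 (p = 0.0392) and 0.54 without 17907 and 18432. Synapse scaffold genes had 14 of 16 below 0 and a median of −0.15, which was 0.03 without the 2 controls. Dlg1 (SAP97), a scaffold of AMPA receptors, lay at 167 to 206 CPM (median 195) in targeted libraries, against 185 to 240.0 (median 226) in controls, all 8 targeted libraries below the control median (log2 fold change −0.22, p = 0.0440). Its log2 fold change without 17907 and 18432 was −0.21 (edgeR p = 0.0879). Dlgap2, a partner of the Dlg scaffolds, was at −0.26 and −0.10 without the 2 controls. The GABA-A receptor genes were nearer to 0, with a median of −0.06, and Gabra4, the striatal α4 subunit, was at −0.27.

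Markers of neurons from neighbouring regions differed widely among libraries of both groups. All 10 genes of cortical glutamatergic neurons lay below 0, with a median of −1.13, and without controls 17906 and 17910 the median was 0.39 with 7 of 10 above 0. Without 17906 alone it was 0.12. The vesicular glutamate transporter gene Slc17a7 was at 3.07 to 143 CPM (median 17.6) in targeted libraries, against 2.34 to 585 (median 7.66) in controls. Control 17906 held the highest value and control 18420 the next (189.8 CPM), followed by targeted libraries 18150 (143) and 18432 (133), so high and low libraries occurred with both guides. The cortical layer factor gene Fezf2 (−1.22) was likewise highest in 17906, at 11.9 CPM, and was at −0.01 without that library.

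Markers of septal and pallidal neurons leaned the other way, with 9 of 10 above 0 and a median of 0.55 with all libraries, 0.57 without 17907 and 18432 and 0.61 without the 2 controls. Without targeted library 18419 alone the median was 0.20. Zic1, a zinc finger gene of septal neurons, was at 4.57 to 139 CPM (median 15.7) in targeted libraries, against 6.71 to 61.2 (median 10.6) in controls. The highest libraries were targeted 18419 and 18150, then control 17906, and 7 of 8 targeted libraries were above the control median (log2 fold change 0.82, p = 0.0833). Library 18419 held 139 CPM, and without it the log2 fold change was 0.10. With 18419 kept and the 2 controls left out it was 1.83 (edgeR p = 0.000412), which was not called. The homeobox genes Gbx1 and Lhx8 of ventral forebrain neurons were at 0.91 (p = 0.0465) and 0.71, and both were highest in targeted library 18168, without which they were at 0.54 and 0.38. All 8 genes of cholinergic interneurons, a list that also holds Lhx8, were above 0 (median 0.32), none with an unadjusted p under 0.05. Without 17907 and 18432 the median was 0.42 and 2 of 8 had an unadjusted p under 0.05 (1.34% of all genes), none of which passed. With single libraries left out the median ran from 0.20 (17906) to 0.49 (17910). The mean log2 CPM of this list was below the control median in 4 targeted libraries and above it in 4. Targeted 18419 (2.88) and 18168 (2.82) were the highest of all libraries. What share of a library came from tissue beside the nucleus accumbens was not tested.

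**Figure D5:**
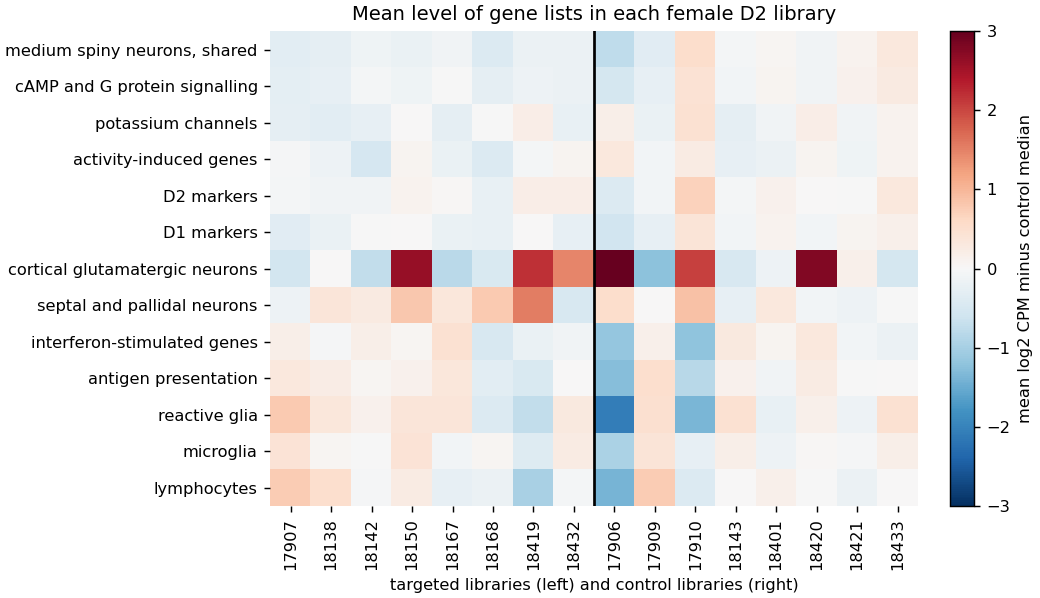
Mean log2 CPM of 13 gene lists in each library, as the difference from the median of the 8 controls (colours from −3 to 3; targeted libraries left of the line). Cortical markers are high in targeted 18150, 18419 and 18432 and in controls 17906, 17910 and 18420, and controls 17906 and 17910 are low in interferon, antigen presentation and reactive glia genes.

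Genes of the immune response to the vector, which herpes simplex vectors are known to provoke, stood slightly above 0 as lists. Of 25 interferon-stimulated genes 24 lay above 0 (median 0.17), as did all 13 of antigen presentation (0.14), all 12 of reactive glia (0.21) and 11 of 12 of microglia (0.14). No member had an unadjusted p under 0.05. Without 17907 and 18432 the medians were 0.14 for interferon-stimulated genes, 0.08 for antigen presentation (12 of 13 above 0), 0.07 for reactive glia (9 of 12) and 0.06 for microglia (9 of 12). Without control 17906 alone they were 0.07, 0.03, 0.10 and 0.05 in the same order. Without controls 17906 and 17910 the medians were −0.06, −0.07, −0.05 and −0.01 in the same order, and 5 of 25 interferon-stimulated genes lay above 0. These 2 controls were left out for their low interferon and antigen presentation levels, so lower medians for those lists were set by that choice. They were also the 2 lowest for reactive glia. The sign without them tells only how far these medians rest on them. The mean log2 CPM of the interferon list ran from 6.02 to 6.95 (median 6.51) in targeted libraries, against 5.29 to 6.81 (median 6.50) in controls. Controls 17910 (5.29) and 17906 (5.33) were lowest and the others lay at 6.02 or above.

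Among single immune genes Ifit1, an antiviral effector, was at 45.9 to 108 CPM (median 78.9) in targeted libraries, against 25.1 to 84.2 (median 66.0) in controls, a log2 fold change of 0.34 (95% interval −0.76 to 1.45). Stat2, which carries the interferon signal to the nucleus, was at 0.29, and B2m, the light chain of class I molecules, at 0.24. The acute-phase inhibitor gene Serpina3n of reactive astrocytes was at 155 to 559 CPM (median 358) in targeted libraries, against 29.9 to 394 (median 284) in controls, and the microglial receptor gene Csf1r at 0.21. Serpina3n was lowest in control 17906 and next lowest in control 17910. T cell and natural killer markers had a median of 0.09 with 10 of 15 above 0, and 0.00 without 17907 and 18432. Without control 17906 Serpina3n was at 0.27, B2m at 0.13 and Csf1r at 0.11. Chemokine genes had a median of 0.02, and −0.19 without controls 17906 and 17910, with 10 of 12 below 0 (53.6% of all genes). Astrocyte and oligodendrocyte markers were both at 0.01, endothelial and mural markers at −0.14, and the 5 red blood cell genes, Hbb-bt (−0.62) among them, at −0.39. Without control 17906 Hbb-bt was at −0.26 and that list at −0.22.

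The effect of the Fosb guide was then compared between arms, which share no libraries. The D1 arm was sequenced in batch 1 and the male arm in batches 1 and 2, for which the model has a term. All libraries of batch 2 are of the male D2 arm, where batch 1 held a larger share of targeted than of control libraries. The male effect, and the difference from it, therefore depend on that term. For females with D2 delivery against males with D2 delivery (8 and 8 against 7 and 8 libraries) edgeR called 0 of 25420 genes, with 321 at an unadjusted p under 0.05 (1.26%). DESeq2 and limma-voom called 0 as well. For females with D2 against females with D1 delivery (6 and 8 libraries) it called 1 gene (0.00393%), Gm9887, and 911 genes had an unadjusted p under 0.05 (3.58%). Gm9887 was at 1.52 to 4.71 CPM (median 2.14) in targeted libraries, against 1.18 to 3.34 (median 2.78) in controls, and the difference of the effects, 5.49 on the log2 scale (adjusted p = 0.0224), came from the D1 arm, where it was −5.48. There control 16583 held 890.3 CPM and no other library over 4.18. No gene passed without targeted 18167, or without control 17910. DESeq2 did not call Gm9887, for which its difference was 0.05, and called Rnu2-10 in its place (adjusted p = 0.0252). Rnu2-10 was high in targeted library 18167 of the D2 arm, and both arms entered its difference. Its edgeR log2 fold change was 3.18 in the D2 arm and −3.91 in the D1 arm. In the D2 arm the log2 fold change of Gm9887 was 0.01.

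Activity-induced genes had a median difference between the D2 and D1 effects of −0.48, and 10 of 24 had an unadjusted p under 0.05 for it, next to 3.58% of all genes, and none of them passed. The median was −0.16 in the D2 arm and 0.27 in the D1 arm. Inhba was at −0.57 with D2 and 0.55 with D1 delivery (p of the difference 0.00140), and Homer1 at −0.44 and 0.16 (0.0167). In males with D2 delivery the activity-induced median was −0.27, and no member had an unadjusted p under 0.05 for the difference between the sexes. Cortical markers differed in the same direction between the arms, with a median log2 fold change of −1.13 with D2 and 2.07 with D1 delivery, and 8 of 10 had an unadjusted p under 0.05 for the difference (3.58% of all genes). Their part in the activity-induced difference was not tested.

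Genes with small p for the differences between arms did not pass. Pamr1, which encodes a muscle-associated protease-like protein, was at 4.57 to 10.3 CPM (median 8.64) in targeted libraries, against 8.33 to 16.5 (median 11.0) in controls, a log2 fold change of −0.44, against 0.53 in males with D2 and 0.52 in females with D1 delivery (p = 0.00150 and 0.00151). Htr7 was at 0.58, against −0.42 and −0.57 (p = 0.00756 and 0.00285). The medium spiny neuron list was at a median of −0.22, against −0.07 in males with D2 and −0.14 in females with D1 delivery, and none of its genes had an unadjusted p under 0.05 for either difference.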

How the data were processed

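The authors deposited 1 table of raw read counts per gene, with GENCODE-style names for 55487 genes. Per the submitters' processing notes, Trim Galore, HISAT2, SAMtools and featureCounts of the Subread package were used, and DESeq2 1.27 is named. The sources used here do not give their roles, the annotation or the strand setting. GENCODE M21 (mm10) supplied coordinates. One column matched no label and 1 label no column, and neither was used.

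Counts of 87 libraries were filtered by group, scaled by TMM and tested with edgeR 4.0.16 (quasi-likelihood, R 4.3.3) in a model of 12 groups and sequencing batch, leaving 25420 genes. A call means a Benjamini-Hochberg adjusted p under 0.05. List levels are mean log2 CPM with a prior count of 2. Log2 fold changes are targeted minus control. DESeq2 1.42.0, limma 3.58.1 (voom with quality weights), sva 3.50.0 (3 surrogate variables), other filters and left-out libraries were alternatives, 24 planned and 6 added after seeing the data. The scripts were tested on simulated counts. Named genes are Fosb and its neighbours, up to 12 genes of smallest p per direction (established symbols, mean CPM 1 or more), likewise without 17907 and 18432, up to 3 per list and up to 5 per difference between arms. Other genes named were chosen after their values were seen. The members and the 40 lists were chosen with earlier results of these data known. Pairing of libraries was not given. Some genes and sequences are not reported here.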

Additional observations from a re-analysis of the deposited data

Results flagged for a closer look

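Values that lie far from the rest of their group are given here, each as the highest or lowest library by the gap to its neighbour over the range of the group. Chance alone would pick about 1 in 20 groups if values were normal and independent, which was not checked for these levels. The number of groups screened is not given here, so the picks cannot be set against that rate. Some of the genes were named for a small p, which a single high library can give. No explanation was tested.

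Targeted library 17907 was the highest of its group for Fosb (13.3 CPM) and Pole2 (6.16 CPM). Targeted library 17907 was the lowest of its group for Abhd12 (160.1 CPM). Targeted library 18142 was the lowest of its group for Dlgap2 (24.7 CPM). Targeted library 18167 was the highest of its group for Rnu2-10 (58.5 CPM). Targeted library 18168 was the highest of its group for Gm43333 (15.8 CPM) and Lhx5 (0.538 CPM). Targeted library 18419 was the highest of its group for Gxylt1 (42.2 CPM), St8sia6 (12.1 CPM) and Gm4335 (59.7 CPM). Targeted library 18432 was the highest of its group for Zfp395 (10.1 CPM) and Zfp473 (2.74 CPM). In 17907 and 18432 a single read is worth about 1 CPM, so the Pole2, Zfp395 and Zfp473 values there rest on few reads.

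Control library 17906 was the highest of its group for Smoc2 (8.19 CPM), Slc17a7 (585 CPM), Fezf2 (11.9 CPM) and Ddx3y (0.508 CPM). Control library 17909 was the highest of its group for Zfp395 (4.49 CPM), n-R5s194 (0.575 CPM) and Gm43333 (0.180 CPM). Control library 17910 was the highest of its group for Fosb (11.9 CPM) and Tac1 (302 CPM). Control library 17910 was the lowest of its group for Tmem159 (9.84 CPM). Control library 18143 was the highest of its group for Pigo (62.6 CPM). Control library 18401 was the highest of its group for Pole2 (283 CPM). Control library 17906 was the lowest of its group for the oligodendrocyte list (6.04 mean log2 CPM) and the endothelial and mural list (3.91 mean log2 CPM). Control library 18421 was the highest of its group for the mitochondrially encoded list (8.50 mean log2 CPM).

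The effect on Gm9887 differed between D2 and D1 delivery in females by 5.49 on the log2 scale (edgeR adjusted p = 0.0224), and edgeR called no other gene for either difference between arms. DESeq2 did not call it, with a difference of 0.05, and called Rnu2-10 for the same comparison (adjusted p = 0.0252).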

How the results depend on the processing

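Most values kept their direction under the 30 alternatives. The count of genes called, 0 in edgeR, was 4 by DESeq2, 1 without controls 17906 and 17910, 1 without these and 17907 and 18432, and 0 to 1 when each library was left out in turn. The 1 gene was Pole2 (adjusted p 0.0109, 0.0457 and, without control 17910, 0.0395). Its log2 fold change was 0.017 by DESeq2. Of the genes named in the text 1 was called under the same 3 choices, 0 to 1 with each library left out. For the difference from the female D1 arm, 1 call became 0 with no low-count filter, by limma-voom with or without 17907 and 18432, with 3 surrogate variables, without 17906 and 17910 and without all 4. DESeq2 also gave 1, but of another gene (Rnu2-10 and not Gm9887), and without 17907 and 18432 it gave 3 (Rnu2-10, Gm4335 and Mir6236, again without Gm9887), and by edgeR leaving out each library gave 0 (18167, 17910) to 2 (18419, Gm9887 and Cyp2g1). With no low-count filter 1459 of 49323 genes had an unadjusted p under 0.05.

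Log2 fold changes with the other sign than with all libraries by edgeR were with DESeq2 size factors Penk at 0.027, by DESeq2 Penk at 0.028, with 3 surrogate variables Fos at −0.040, Csf1r at −0.022 and B2m at −0.013, with the arm fitted alone Penk at 0.0094. Further such values were without 17907 and 18432 n-R5s194 at −1.17, by limma-voom without them Fos at −0.013, B2m at −0.062 and n-R5s194 at −0.63, by DESeq2 without them n-R5s194 at −1.22. So were without controls 17906 and 17910 Tac1 at 0.012, Slc17a7 at 0.38 and Fezf2 at 0.40, without all 4 Fos at −0.052, Tac1 at 0.025, Slc17a7 at 0.056, Fezf2 at 0.45, Ifit1 at −0.017, Serpina3n at −0.027, Csf1r at −0.0045, B2m at −0.17 and n-R5s194 at −1.27. With each library left out in turn, the ranges were Nr4a1 −0.14 to 0.052 (other sign without 18138 and 18433), Penk −0.13 to 0.047 (other sign without 18138, 18150, 17910, 18401 and 18433), Gxylt1 −0.024 to 0.68 (other sign without 18419), Slc17a7 −1.80 to 0.21 (other sign without 17906), Npas4 −0.59 to 0.00022 (other sign without 17910), Tac1 −0.20 to 0.052 (other sign without 17910), Pdyn −0.20 to 0.035 (other sign without 17910) and Pigo −0.54 to 0.020 (other sign without 18143).

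The cause of these moves was not tested. Over the alternatives the unadjusted edgeR p of Fosb ran from 0.00470 (arm fitted alone, without 17907 and 18432) to 0.284 (without controls 17906 and 17910). Its adjusted p never passed. The list medians of medium spiny neurons, cAMP signalling, potassium channels, D1 and D2 markers, activity-induced genes, reported ΔFosB targets, endothelial and mural cells and red blood cells were below 0, and those of cholinergic interneurons, septal and pallidal neurons and choroid plexus above 0, under every alternative tried, though their sizes moved by over 1.5 times for all of these but the activity-induced genes when single libraries were left out. The depth of 17907 and 18432, 974650 and 1093708 effective counts, limits what they show for genes under 10 CPM. No paired analysis was possible because the library numbers are unique and the groups share none.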

Other observations

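Other gene groups were measured in the same libraries. The 15 transcripts encoded by the mitochondrial genome were at 0.34 in the median (log2 fold change), 12 of 15 above 0, and 0.28 without 17907 and 18432. Leaving out targeted library 18419 turned the sign, to −0.08, and leaving out control 18421 gave 0.73. The mean log2 CPM of these transcripts had a median of 6.49 in targeted libraries, where 18419 was the highest at 8.94, against 6.66 in controls. None of them had an unadjusted p under 0.05. Nuclear genes of oxidative phosphorylation had a median of −0.05 and ribosomal protein genes one of 0.04. Markers of choroid plexus and ependyma were at 0.21, 0.67 without controls 17906 and 17910, and 0.05 to 0.45 with single libraries left out. Control 17910 had the highest level of these markers among all libraries. Of 14 proliferation genes 11 lay above 0 with all libraries (median 0.11), and 1 without the 2 controls (median −0.13). The 2 controls had the lowest levels of this list among all libraries.

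Among 15 genes of the circadian clock the median was −0.09. Arntl, which encodes the clock activator BMAL1, lay at 8.21 to 24.7 CPM (median 17.0) in targeted libraries, against 17.8 to 24.8 (median 19.7) in controls, a log2 fold change of −0.30 (edgeR p = 0.0301), and did not pass. Glucocorticoid-induced genes had a median of −0.07 with 4 of 12 above 0. Genes of opioid peptides and other neuropeptides had a median of −0.07, and 4 of 16 had an unadjusted p under 0.05 for the difference from females with D1 delivery, next to 3.58% of all genes. The medians of the clock, glucocorticoid-induced and opioid lists were 0.04, 0.01 and 0.06 without controls 17906 and 17910. Heat shock genes had a median of 0.00, GABA interneuron markers one of 0.01, oligodendrocyte precursor markers one of 0.05, markers of the meninges one of −0.04 and the 5 markers of dopaminergic terminals one of −0.07. Without controls 17906 and 17910 these medians were 0.06, 0.33, 0.00, 0.37 and 0.05 in the same order. Then 7 of 10 GABA interneuron and 7 of 8 meningeal markers lay above 0, next to 46.3% of all genes. With all libraries 5 of 10 and 3 of 8 did. Controls 17906 and 17910 had the highest levels of both lists among all libraries, so leaving them out raises these medians.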
